A study of Homo sapiens with 6 samples.

Results

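Open chromatin was examined at 7 human genes: TOP1, TDP1, ATR, CHEK1, RPA1, MCM3 and PCNA. Members were all ATAC-seq peaks lying in the hg19 span of one of these genes or within 2 kb of either end. Across 6 peak lists these formed 14 regions, of 32037 regions in the union of the lists. ATAC-seq marks open DNA by letting a transposase cut it and insert sequencing adapters. The cells were CCRF-CEM, an established human T lymphoblast leukaemia line, either the wild-type parent or an SLFN11 gene knockout made from it. SLFN11 is a protein recruited to stressed replication forks. Each genotype received DMSO, the solvent, or 100 nM camptothecin for 2 h or 4 h, and each of the 6 groups has 1 library, so no difference has a replicate spread and none was tested. The knockout is a single line, and its clone and its genotype cannot be told apart.

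Libraries are named here by the code in their peak identifiers, matched to the same code in the sample titles. The code disagrees with the sample each list is recorded under in 3 of 3 cases per genotype. In each genotype the list coded DMSO is recorded under 4 h, the list coded 2 h under DMSO and the list coded 4 h under 2 h. Values under the recorded placement are therefore given beside the calls and summaries of each comparison. The genotype of a list is the same under both placements.

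Topoisomerase I, made from TOP1, relaxes supercoiled DNA by cutting and resealing a single strand. Camptothecin holds the enzyme on the cut DNA, and a replication fork that meets such a complex can break. TDP1 removes the trapped enzyme's remnant from the DNA end. RPA1 is the large subunit of the RPA complex that coats exposed single-stranded DNA, the signal that recruits the kinase ATR, which activates the checkpoint kinase CHEK1. MCM3 is a subunit of the replicative helicase, and PCNA is the sliding clamp that keeps DNA polymerase on its template.

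The DNA just before the starts of TOP1, RPA1, MCM3 and PCNA is shown because the comparisons below turn on these promoters. PCNA is shown at both starts that RefSeq lists for it, since its open regions include a strong one inside the gene. Each sequence is the 250 bases before a RefSeq start on the gene's strand, in build GRCh38.p14, and no position was carried between this build and the hg19 peaks. Capitals mark matches, on either strand, to the GC box GGGCGG that binds the SP1 family of factors. They also mark the CCAAT box, which is named by its own letters, and the core of the cAMP response element, TGACGTC.
TOP1 (chr20:41028572-41028821, plus strand): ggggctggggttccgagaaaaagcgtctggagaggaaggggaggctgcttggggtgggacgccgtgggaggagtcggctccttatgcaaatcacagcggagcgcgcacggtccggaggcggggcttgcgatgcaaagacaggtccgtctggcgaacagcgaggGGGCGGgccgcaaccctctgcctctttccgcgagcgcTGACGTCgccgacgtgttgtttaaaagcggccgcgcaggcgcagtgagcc
RPA1 (chr17:1829755-1830004, plus strand): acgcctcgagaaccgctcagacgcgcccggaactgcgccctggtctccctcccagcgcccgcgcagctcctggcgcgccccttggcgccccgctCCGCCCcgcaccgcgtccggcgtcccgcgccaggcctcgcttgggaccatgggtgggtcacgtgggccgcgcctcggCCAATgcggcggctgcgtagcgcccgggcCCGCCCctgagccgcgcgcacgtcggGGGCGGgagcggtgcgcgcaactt
MCM3 (chr6:52284743-52284992, minus strand): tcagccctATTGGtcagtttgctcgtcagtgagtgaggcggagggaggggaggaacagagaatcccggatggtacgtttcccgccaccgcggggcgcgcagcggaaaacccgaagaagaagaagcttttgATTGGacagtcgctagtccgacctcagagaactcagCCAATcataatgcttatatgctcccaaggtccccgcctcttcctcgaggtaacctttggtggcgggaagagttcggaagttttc
PCNA first start (chr20:5126623-5126872, minus strand): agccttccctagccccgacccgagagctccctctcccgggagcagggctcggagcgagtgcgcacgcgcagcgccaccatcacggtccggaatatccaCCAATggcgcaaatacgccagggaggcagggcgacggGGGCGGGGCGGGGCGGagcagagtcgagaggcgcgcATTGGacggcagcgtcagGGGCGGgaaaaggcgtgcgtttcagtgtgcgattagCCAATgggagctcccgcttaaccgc
PCNA second start (chr20:5119959-5120208, minus strand): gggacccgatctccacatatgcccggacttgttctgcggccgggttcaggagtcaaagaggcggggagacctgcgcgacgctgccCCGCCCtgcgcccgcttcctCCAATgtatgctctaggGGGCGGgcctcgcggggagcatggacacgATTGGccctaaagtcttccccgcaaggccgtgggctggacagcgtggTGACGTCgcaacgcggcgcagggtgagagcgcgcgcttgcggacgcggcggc

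TOP1 held 1 GC box, 1 TGACGTC and no CCAAT. RPA1 held 3 GC boxes and 1 CCAAT. MCM3 held 3 CCAAT boxes and no GC box. PCNA had 4 GC boxes and 3 CCAAT boxes before its first start, and 2 GC boxes, 2 CCAAT boxes and 1 TGACGTC before its second. Among all 35116 windows of this length in the table, 42.6% held a GC box, 32.0% a CCAAT box and 3.12% a TGACGTC. The ETS motif CCGGAAG was found 1 time for TDP1 and 2 times for ATR, a motif of 8.52% of windows. RefSeq lists 3 starts for CHEK1, and each of their windows held 3 GC boxes. The AP-1 motif (TGANTCA, 6.57% of windows) was in none of the members' windows. Nor was the exact string TTTCGCGC, a single spelling of the E2F motif (0.439% of windows). Other spellings of the E2F motif were not searched, so these windows are not shown to lack E2F sites. GC content was 78.8% for RPA1 and 55.6% for MCM3, the highest and the lowest of the members, and the median window had 58.0%. These matches describe letters and are not evidence of binding.

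The lists held between 14205 merged peaks (parent DMSO) and 23665 (parent camptothecin 2 h) on chromosomes 1 to 22 and X. Each peak carries the authors' fold enrichment over local background and its p, which together give the number of reads piled up at the summit. The median summit pileup of the 11070 regions held by all 6 libraries was 20.0, 49.0 and 59.0 reads for the parent (DMSO, then 2 h, then 4 h) and 26.0, 30.0 and 24.0 for the knockout. The same order of treatments is kept wherever 3 values are given. Parent DMSO therefore stands apart, with the fewest peaks and the lowest pileups, and the lists coded as parent camptothecin have the highest. The sequencing depth of the libraries was not examined here. Peak number, called width and raw pileup can all rise with depth, so depth and treatment cannot be told apart in them. Marker genes of T cells and SLFN11 itself were not analysed here, because no hg19 annotation was used.

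Every member had an open promoter in every library. A peak within 1 kb of the start was called for 7 of 7 genes in 6 of 6 lists. Of the 14 member regions, 11 (78.6%) were held by all 6 libraries, against 34.6% of the whole union. The union holds regions of every kind, and the same share for promoters of other genes was not computed. Whether the contrast is particular to these genes was therefore not tested. Of the 11 regions, 7 were promoter regions. The other 4 shared regions lay upstream of TDP1, inside PCNA, and beyond the 3′ ends of ATR and PCNA. By gene order in RefSeq's GRCh38 table, the neighbours within 2 kb of a member are EFCAB11 (TDP1), XRN1 (ATR), SMYD4 (RPA1), and TMEM230 and CDS2 (PCNA). EFCAB11, SMYD4 and CDS2 lie beside the start of their member on the opposite strand, and ACRV1 overlaps CHEK1. Peaks at these edges, promoter regions included, may belong to a neighbour, and which gene they serve was not tested. Without the parent DMSO library, 11 member regions were held by all 5 others, beside 40.8% of the union.

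**Figure D1:**
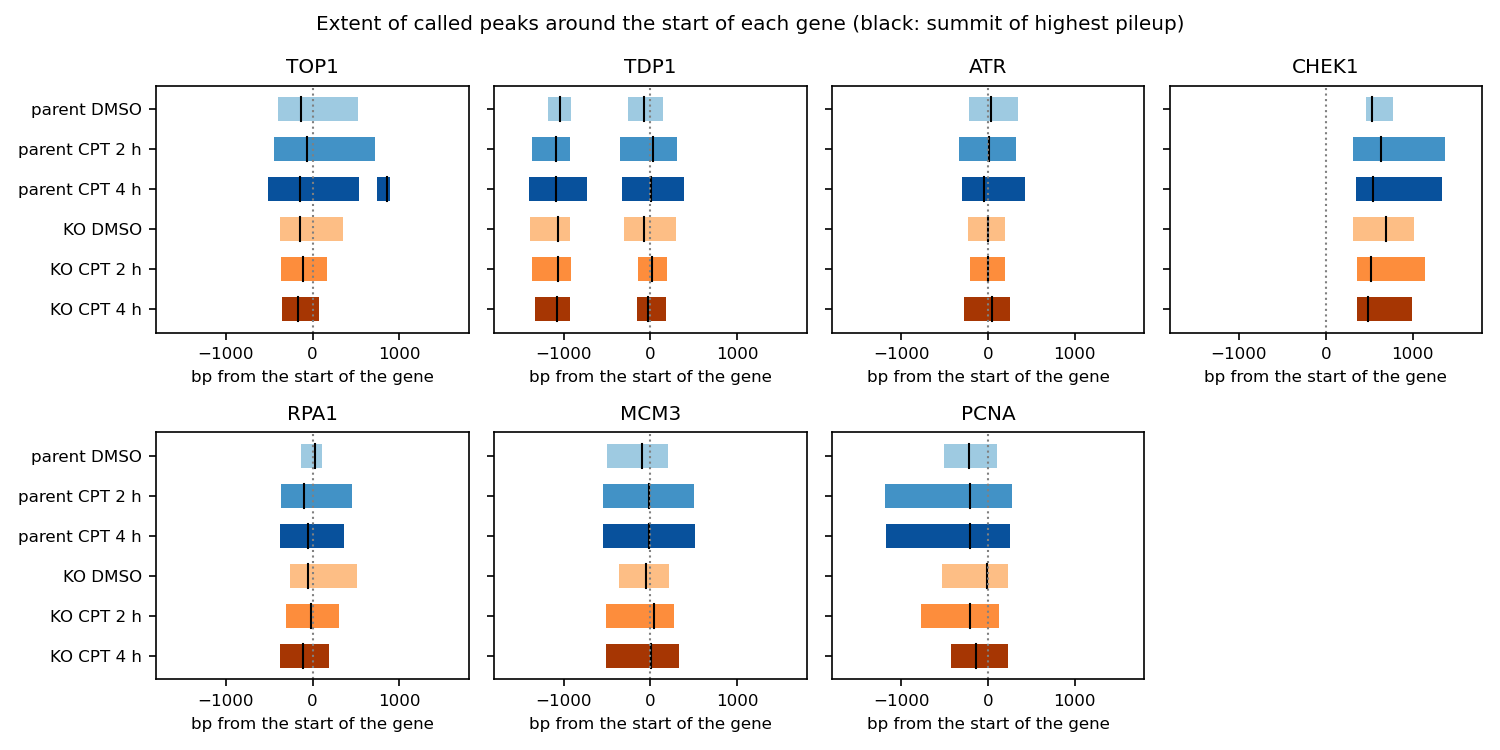
Extent of called peaks around the start of each gene in bp (horizontal axis; upstream is negative), with a row per library and a black tick at the summit of highest pileup. All 7 genes have a peak near the start in all 6 libraries. CHEK1 peaks begin 309 to 465 bp inside the span, TDP1 has a separate upstream peak, and the parent camptothecin libraries have the widest PCNA peaks.

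Promoter summits sat close to the annotated start in all members but CHEK1. The TOP1 region spanned chromosome 20, 39656951 to 39658184, with summits 65 to 164 bp upstream of the start. The TDP1 region was chromosome 14, 90421901 to 90422630, with summits from 75 bp upstream to 26 bp downstream. ATR, on the minus strand, was open at chromosome 3, 142297238 to 142297998, with summits from 52 bp upstream to 41 bp downstream. RPA1 was open at chromosome 17, 1732895 to 1733789, with summits from 105 bp upstream to 26 bp downstream. For MCM3, on chromosome 6, 52149162 to 52150227, summits ran from 90 bp upstream to 38 bp downstream. The PCNA promoter region, chromosome 20, 5106990 to 5108459, had summits 11 to 217 bp upstream. CHEK1 was the exception, its region on chromosome 11, 125495340 to 125496403, lying wholly inside its span, with summits 483 to 694 bp downstream of the edge. The starts that RefSeq lists for CHEK1 lie within 132 bases of each other in GRCh38. The start used here is the edge of the hg19 span, and the distance of the RefSeq starts from that edge was not determined.

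TOP1 had the highest promoter pileup of any member in the parent 4 h library. Its summit held 43 reads (exact Poisson 95% interval 31.1 to 57.9) in parent DMSO, 95 (76.9 to 116) at 2 h and 170 (145 to 198) at 4 h. The knockout summits held 66, 66 and 65 reads. The parent values spread widely while the knockout values differed by 1 read, and the raw parent range encloses the knockout range. Divided by the median of shared regions in its own library, the level was 2.15, 1.94 and 2.88 in the parent and 2.54, 2.20 and 2.71 in the knockout, so most of the raw parent spread was shared by other regions. Pileup intervals cover counting error only and treat reads as independent. Amplified copies of a molecule are not, and if any were kept the intervals are too narrow even for counting error.

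TDP1, whose product repairs trapped topoisomerase I, had 22, 57 and 82 reads at its promoter summit in parent cells and 33, 30 and 35 in knockout cells. Its levels were 1.10, 1.16 and 1.39 times the library median in the parent and 1.27, 1.00 and 1.46 in the knockout, and the genotypes overlap. The upstream region, chromosome 14, 90420854 to 90421515, with summits at -1092 to -1036 bp from the TDP1 start and on the side of EFCAB11, behaved differently. It held 19, 83 and 97 reads in the parent and 40, 47 and 34 in the knockout. Its level was lowest in parent DMSO, at 0.950, and between 1.42 and 1.69 in the other 5 libraries.

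In pileup the checkpoint genes stood lower than TOP1. ATR had promoter summits of 22, 58 and 68 reads in parent cells and 25, 22 and 30 in knockout cells. Relative to the library median these were 1.10, 1.18 and 1.15 in the parent and 0.962, 0.733 and 1.25 in the knockout, so the knockout values lie on both sides of the parent ones. By pileup CHEK1 was the weakest promoter in every library, tied with ATR in knockout 2 h, and had 14, 30 and 37 reads in the parent and 22, 22 and 16 in the knockout. In units of the library median it stood between 0.612 and 0.846, and the genotypes overlap. RPA1 held 18, 46 and 79 reads in the parent and 30, 36 and 19 in the knockout. Its level was 0.900, 0.939 and 1.34 in the parent and 1.15, 1.20 and 0.792 in the knockout, the highest value being parent 4 h and the lowest knockout 4 h.

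The replication genes MCM3 and PCNA ranked with TOP1 in pileup. MCM3 had 45, 120 and 136 reads in the parent and 37, 51 and 44 in the knockout. Its level was 2.25, 2.45 and 2.31 in the parent and 1.42, 1.70 and 1.83 in the knockout, so every parent value lay above every knockout value. At the PCNA promoter the summit held 36, 121 and 156 reads in the parent and 54, 72 and 56 in the knockout, and the levels of 1.80 to 2.64 and 2.08 to 2.40 overlap.

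**Figure D2:**
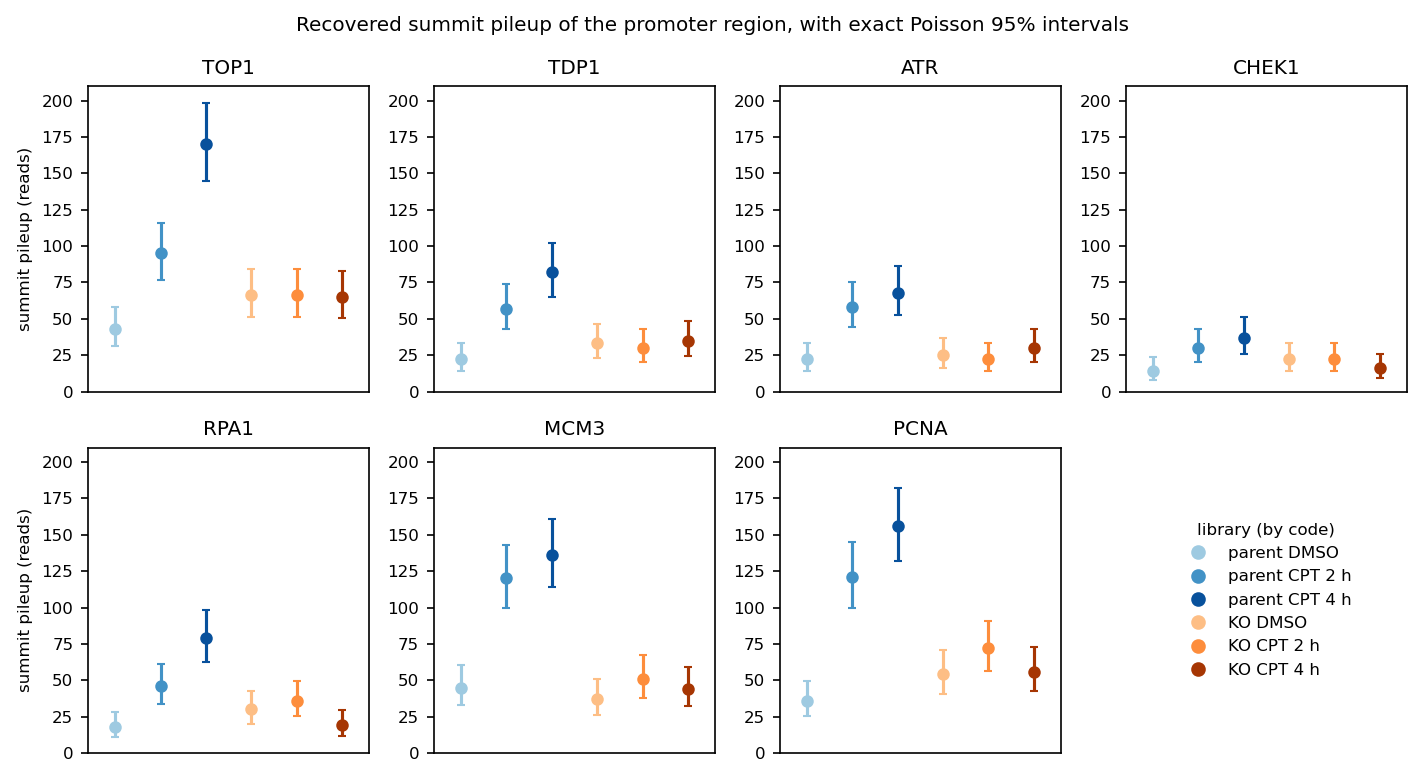
Reads piled up at the promoter summit (vertical axis, linear) of each gene in each library, named by code, with exact Poisson 95% intervals for counting error. TOP1 reaches 170 reads and PCNA 156 in parent camptothecin 4 h, while CHEK1 stays between 14 and 37 in all 6 libraries.

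PCNA had a strong region inside the gene as well. It covered chromosome 20, 5099897 to 5101070, and its summits lay 6536 to 6672 bp downstream of the start in hg19. The second RefSeq start of PCNA lies 6664 bases downstream of the first in GRCh38, and the builds were not aligned here. This inner region held 43, 105 and 140 reads in the parent and 53, 51 and 47 in the knockout. Its levels were 2.15, 2.14 and 2.37 in the parent and 2.04, 1.70 and 1.96 in the knockout. The genotypes again did not overlap, but their closest values were 2.14 and 2.04. Beyond the 3′ end, on the side of TMEM230, a region at chromosome 20, 5093315 to 5094176, was the most even member, with levels from 1.25 to 1.42. Its highest level was 1.14 times its lowest, a ratio as small in 0.461% of the shared regions. The summits held 25, 63 and 76 reads in the parent and 37, 38 and 30 in the knockout. The counting interval of the 25 reads alone is 16.2 to 36.9, wider than this spread of levels. As it is also the most extreme of 11 regions, the evenness is not shown to be a trait of the region. The region beyond the 3′ end of ATR, chromosome 3, 142166087 to 142167161, on the side of XRN1, had levels from 0.650 to 0.847.

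**Figure D3:**
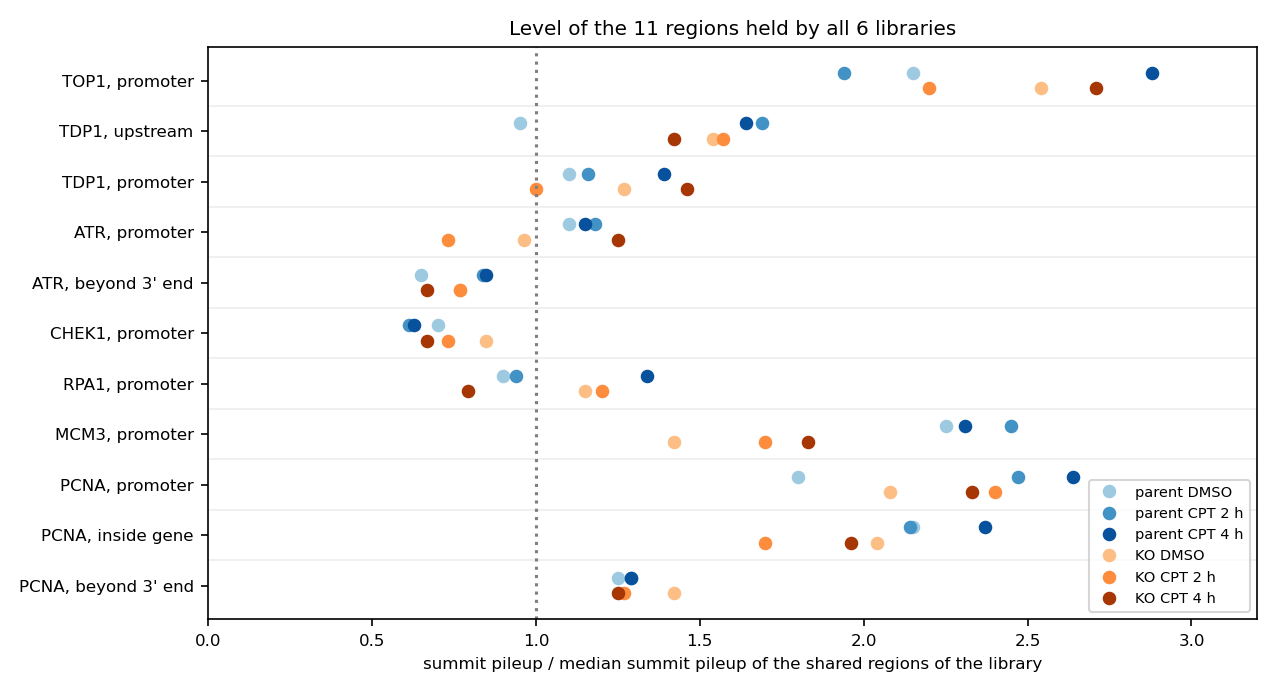
Summit pileup of the 11 regions held by all libraries, divided by the median summit pileup of the 11070 shared regions of the same library (horizontal axis, no unit; dotted line at 1), with parent libraries in blue above knockout libraries in orange. The MCM3 promoter and the region inside PCNA have all 3 parent points above all 3 knockout points, inside PCNA by a narrow gap (2.14 against 2.04).

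Ranked by pileup among the 11070 shared regions, TOP1 stood at the 93.3 to 98.1 percentile, the PCNA promoter at 89.3 to 97.5 and MCM3 at 78.4 to 97.4. TDP1 stood at 51.4 to 78.7, RPA1 at 28.2 to 68.4, ATR at 26.0 to 67.6 and CHEK1 at 15.9 to 36.5. TOP1 and CHEK1 do not overlap in any pair of libraries, whereas the ranges of TDP1, RPA1 and ATR overlap each other, as do those of TOP1, PCNA and MCM3. By the authors' fold enrichment the order was different. TDP1 then lay below CHEK1 in 4 of 6 libraries, for example at 5.07 against 6.65 in knockout 2 h. ATR lay above the PCNA promoter, for example at 11.9 against 10.2 in parent 4 h, except in knockout 2 h (6.95 against 8.49). The lower standing of ATR in pileup therefore did not hold against PCNA by fold. The PCNA promoter fell in the 54.2 to 73.3 percentile by fold and TOP1 in 52.7 to 97.4. In parent 4 h the local background recovered for these summits was 14.4 reads at PCNA and 12.8 at TOP1, against 3.84 at CHEK1. Fold divides by that background, so pileup and fold place these promoters differently.

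Over the 6 libraries no member promoter varied much more than the median shared region, and several varied less. The highest level divided by the lowest was 1.72 for MCM3, 1.70 for ATR, 1.69 for RPA1, 1.49 for TOP1, 1.47 for PCNA, 1.46 for TDP1 and 1.38 for CHEK1. The median shared region had 1.68, and from the 5th to the 95th percentile the ratio ran from 1.27 to 4.00. Among shared regions MCM3, ATR and RPA1 stood at the 53.6, 52.2 and 50.7 percentile of this ratio. TOP1, PCNA, TDP1 and CHEK1 stood lower, at 28.2, 26.1, 25.0 and 15.6. Of the other regions, the one upstream of TDP1 was at 58.6, the inner PCNA region at 17.3 and the region beyond the 3′ end of ATR at 7.69.

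In parent cells the camptothecin libraries had higher raw pileups at all 7 promoters than parent DMSO, but so did the other shared regions. The median log2 ratio over shared regions was 1.25 at 2 h and 1.51 at 4 h, and changes below are relative to it. Subtracting it removes any change common to all regions, whether from depth or from opening throughout the genome. At 2 h none of the 7 promoters was past 1.5-fold in either direction, where 7.84% of shared regions were past it upward and 16.1% downward. The largest value was PCNA, with a log2 ratio of 0.50 (95% counting interval -0.05 to 1.08). At 4 h 2 of 7 were higher and none lower, against 12.3% and 25.3% of shared regions. These were RPA1, from 18 to 79 reads, at 0.62 (-0.13 to 1.45), and PCNA, from 36 to 156 reads, at 0.60 (0.07 to 1.17), and the RPA1 interval includes 0. TOP1 reached 0.47 (-0.02 to 0.99). The median over the 7 promoters was 0.13 at 2 h and 0.38 at 4 h, and 0.16 and -0.13 by the recorded placement. That of shared regions is 0.00 by construction. With scaling on the 50% of shared regions that have the highest pileup, no promoter was past 1.5-fold at 4 h, RPA1 being at 0.41 and PCNA at 0.39, so both kept their direction and lost the call. TOP1 was then at 0.26, TDP1 at 0.17, ATR at -0.10, MCM3 at -0.13 and CHEK1 at -0.32. By the authors' fold the 4 h values ran from -0.47 for MCM3 to 0.39 for RPA1. The size of the promoter median thus depends on the scaling. Outside the promoters, the region upstream of TDP1 had log2 ratios of 0.88 (0.15 to 1.68) at 2 h and 0.84 (0.12 to 1.63) at 4 h, at the 98.1 and 96.0 percentile of shared regions.

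Under the recorded placement these parent directions turn or shift. RPA1 at 4 h is then -0.11 and PCNA -0.50, and no promoter is past 1.5-fold upward, where 16.1% of shared regions are. At 2 h TOP1 is past it, from 95 to 170 reads and a log2 ratio of 0.63 (0.26 to 1.01), where 5.49% of shared regions are higher, and RPA1 is just inside it at 0.57 (0.03 to 1.13). The upstream TDP1 region is at 0.01 (-0.42 to 0.45) at 2 h and becomes lower at 4 h, at -0.88 (-1.68 to -0.15), where 7.77% of shared regions are lower.

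Peaks were wider in both parent camptothecin libraries than in parent DMSO at 7 of 7 promoters, which was true of 92.4% of shared regions at 2 h and 90.1% at 4 h. Depth and treatment cannot be told apart in this widening. The RPA1 promoter peak measured 248, 816 and 742 bp at DMSO, 2 h and 4 h, the CHEK1 peak 305, 1064 and 999 bp, and the PCNA region 621, 1299 and 1438 bp. The PCNA value at 2 h sums separate peaks of 1009 and 290 bp, and the first alone is wider than at DMSO. TOP1 widened less, from 921 to 1163 and 1042 bp. The median log2 width ratio of the promoters was 0.72 at 2 h, against 0.63 over shared regions. In the knockout, 3 of 7 promoter peaks were wider at 2 h (58.2% of shared regions) and 2 of 7 at 4 h (44.1%). Against the parent, 4 of 7 knockout peaks were wider at DMSO (72.4%), 0 of 7 at 2 h (19.6%) and 0 of 7 at 4 h (16.0%), whereas the recorded placement gives 0 of 7 at DMSO (19.6%), 0 of 7 at 2 h (16.0%) and 4 of 7 at 4 h (72.4%). By the recorded placement the 4 h parent library has the narrower peak at 7 of 7 promoters, and 7.47% of shared regions are wider there. The recorded 2 h library is then wider at 4 of 7 (49.8%), and in the knockout 2 of 7 are wider at 2 h (35.5%) and 4 of 7 at 4 h (41.1%).

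In SLFN11-knockout cells, by library code, of the 7 promoters only RPA1 at 4 h was past 1.5-fold between camptothecin and DMSO. At 2 h none of 7 was past 1.5-fold, against 4.94% of shared regions higher and 5.37% lower. Values ran from -0.38 for ATR to 0.27 for MCM3, with a median of -0.19, and 0.05 by the recorded placement. At 4 h RPA1 alone was past it, with 19 reads against 30 in knockout DMSO and a log2 ratio of -0.59 (-1.50 to 0.28), where 5.77% of shared regions were higher and 5.89% lower. MCM3 and ATR were at 0.32 and 0.33, and TOP1 at 0.05 (-0.47 to 0.56). The counting intervals of all 7 promoters include 0 at both times. By the recorded placement the 2 h library had ATR higher, at 0.71 (-0.13 to 1.57), and RPA1 lower, at -0.66 (-1.54 to 0.18), where 6.11% of shared regions are higher and 5.41% lower. The recorded 4 h library then had none of 7 past 1.5-fold, where 5.37% are higher and 4.74% lower.

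**Figure D4:**
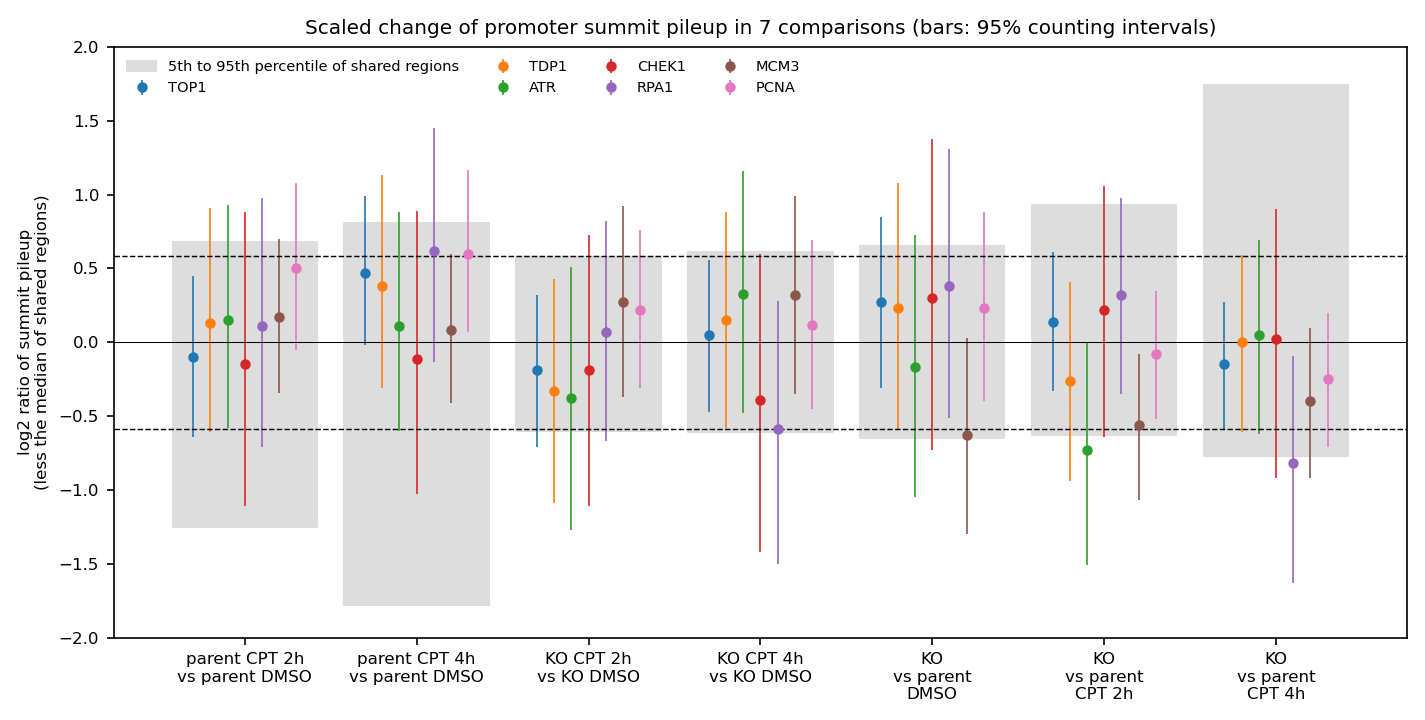
Log2 ratio of promoter summit pileup less the median over shared regions (vertical axis) in 7 comparisons of libraries named by code, with 95% counting intervals, dashed lines at 1.5-fold and grey bars from the 5th to the 95th percentile of 11070 shared regions. RPA1 is the only promoter past 1.5-fold in both genotypes at 4 h, at 0.62 in the parent and -0.59 in the knockout; its intervals include 0.

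Knockout and parent libraries were compared at each treatment. Before camptothecin 1 of 7 promoters was past 1.5-fold, MCM3, with 37 reads in the knockout against 45 in the parent and a log2 ratio of -0.63 (-1.30 to 0.03). Shared regions were past it at 6.84% downward and 6.87% upward. At 2 h ATR was lower in the knockout, at -0.73 (-1.51 to 0.00), beside 6.45% of shared regions lower and 12.8% higher. MCM3 was just inside the threshold there, at -0.56 (-1.07 to -0.08). At 4 h RPA1 was lower, at -0.82 (-1.63 to -0.09), beside 10.8% lower and 25.0% higher, and MCM3 was at -0.40 (-0.92 to 0.10). If placed as recorded, the same 3 pairs of libraries are relabelled, so that the MCM3 value of -0.63 belongs to 4 h, the ATR value of -0.73 to DMSO and the RPA1 value of -0.82 to 2 h.

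The order of the genotypes over all libraries does not depend on which treatment a list holds. At 2 of 11 shared member regions, the MCM3 promoter and the region inside PCNA, all 3 parent levels were above all 3 knockout levels, an order found at 5.63% of shared regions. The opposite order was found at 0 of 11 member regions and 6.12% of shared regions. By the authors' fold in place of pileup, each divided by its median over shared regions, neither the MCM3 promoter nor the region inside PCNA kept this order, which 5.05% of shared regions then had. The CHEK1 and PCNA promoters had all fold values of the knockout above all those of the parent, as did 6.69% of shared regions. Without parent DMSO, 5 member regions had the parent above the knockout (14.5% of shared regions) and 1 had the knockout above the parent (24.9%).

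Few member peaks appeared or vanished between lists, and lists of 11 to 14 member peaks bound such shares only loosely. In the parent, 0 of 11 member peaks of the DMSO list were absent at 2 h or at 4 h, a count that allows a share of up to 27.3% when 0 is read as at most 3 peaks of 11, while 7.45% and 11.2% of all its peaks were absent. At 2 h 3 of 14 member peaks were added (45.4% of all peaks), and at 4 h 2 of 13 (42.8%). By the recorded placement 3 of 14 are instead missing at 4 h (45.4%), and 1 of 14 is missing (20.9%) and 1 of 13 added (13.8%) at 2 h. In the knockout, 0 of 12 peaks were missing (16.5%) and 0 of 12 added (23.1%) at 2 h, and at 4 h 1 of 12 was missing (21.4%) and 0 of 11 added (20.6%). Recorded labels move that missing peak to 2 h (24.0%). The knockout lists lacked 0 of 11 parent peaks at DMSO (11.6%), 2 of 14 at 2 h (26.4%) and 2 of 13 at 4 h (30.2%), and added 1 of 12 at DMSO (35.2%), 0 of 12 at 2 h (15.4%) and 0 of 11 at 4 h (19.4%). Placed as recorded, these 3 pairs belong to 4 h, DMSO and 2 h in turn, so 0 of 12 are added at DMSO (15.4%).

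The peaks that differed were few enough to name. A region inside RPA1, chromosome 17, 1774845 to 1775429, about 42 kb downstream of the start, was called in parent 2 h (20 reads), parent 4 h (17), knockout DMSO (16) and knockout 2 h (19). It was not called in parent DMSO or in knockout 4 h. These lists have the lowest median summit pileups of shared regions, 20.0 and 24.0 reads, and whether so weak a peak fell below the call limit there was not tested. A 251 bp peak at the 3′ end of MCM3, chromosome 6, 52128743 to 52128993, was called in parent 2 h only, with 9 reads and a -log10 q of 2.62. A 144 bp peak downstream of the TOP1 promoter, chromosome 20, 39658208 to 39658351, was called in parent 4 h only, with 29 reads over a local background of 12.8 and a -log10 q of 2.08. Both lie just above the deposited lists' limit of a -log10 q of 2. The peak added near PCNA at 2 h lies inside the PCNA promoter region, next to the main peak, and in parent 4 h it was joined to it.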

How the data were processed

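The 6 groups, with 1 ATAC-seq library each, were read from peak lists deposited by the authors, 1 list per library. Per the submitters' processing notes, the build was hg19 and the tools were MACS2 2.1.2, BWA 0.7.17, Picard 2.9.2, Trim Galore 0.6.2, SAMtools 1.8 and Trimmomatic 0.39, with no role stated. Read shifting, extension and duplicate handling, which move peak edges and pileups, were not given in these sources. The deposited columns used are the fold enrichment (a ratio over local background by the authors' peak caller), the −log10 p and −log10 q, and the summit offset. The deposited score is the −log10 q times a constant and was not used further. The members, lists and comparisons were chosen with earlier results of these data known.

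Overlapping entries of a list on chromosomes 1 to 22 and X were merged. Between 0.445% and 0.728% of entries were left out. Summit pileup was solved from fold, taken as (pileup + 1) over (background + 1), and the Poisson p, with a background of at least 1. In each list no fewer than 99.951% of solved pileups lay within 0.02 of an integer. Peaks sharing at least 1 bp were counted as overlapping. Log2 pileup ratios had their median over regions held by all 6 libraries subtracted, and 1.5-fold was the limit. Intervals of pileups and their ratios are exact Poisson or exact binomial, and those of peak shares are Wilson, all at 95%. They cover counting error only, with reads or peaks taken as independent. Named regions were the promoter regions, other regions held by at least 5 libraries or by all libraries of a single genotype, and the non-promoter region of highest fold in each span. The functions were tested on simulated data. Python 3.11.15, SciPy 1.17.1 and pandas 2.3.3 were used. The wider pathway list and the cell type markers were not used here, since the gene table is GRCh38. All 7 members matched RefSeq's promoter table.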

Additional observations from a re-analysis of the deposited data

Results flagged for a closer look

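The RPA1 promoter was past 1.5-fold in opposite directions in the 2 genotypes at 4 h of camptothecin by library code. Its scaled log2 ratio to DMSO was 0.62 in the parent (18 to 79 reads) and -0.59 in the knockout (30 to 19 reads). The difference between the genotypes was not tested, since each rests on 1 library per group, and both counting intervals include 0. By the recorded placement the values at 4 h are -0.11 and -0.07, and the opposite signs fall at 2 h, with 0.57 (0.03 to 1.13) in the parent and -0.66 (-1.54 to 0.18) in the knockout.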

How the results depend on the processing

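With 1 library per group no call has a replicate check, and summits of 14 to 36 reads limit the ratios of TDP1, ATR, CHEK1 and RPA1 outside the parent camptothecin libraries. No paired analysis was possible because the groups compared share a single replicate number. Treatment does pair the genotypes, and the MCM3 ratios of the 3 pairs were -0.63, -0.56 and -0.40, but no test over pairs was run, and an exact two-sided sign permutation of 3 pairs cannot go below p = 0.25. All 7 promoters were held in all 6 lists at a -log10 q of at least 5, in lists of equal length (14205 peaks) and within 500 bp of the start. Overlap of 50% of the shorter peak moved no count of missing or added peaks by over 1.5 times.

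Counting entries as deposited gave 17, 22, 19 and 17 in place of 11, 14, 12 and 11 for parent DMSO, parent 2 h, knockout DMSO and knockout 4 h. Added parent peaks fell to 1 at 2 h and 1 at 4 h at a -log10 q of at least 5, and to 1 and 0 in equal lists. Parent peaks missing from the knockout became 0 at 2 h and 1 at 4 h at the stricter q, 0 and 0 in equal lists, and 1 at 2 h with no margin. By the recorded placement, missing peaks were 1 and 3 in the parent and 1 and 0 in the knockout at 2 h and 4 h, and added peaks 1 and 0 in the parent. Knockout against parent then gave 2 missing and 0 added at DMSO, and 0 missing and 1 added at 4 h.

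Promoters past 1.5-fold upward in the parent at 4 h went from 2 to 0 with scaling on the 50% of regions of highest pileup, at 2-fold, with the authors' fold and by the recorded placement. The latter gave 1 at 2 h in the parent, and 1 higher and 1 lower at 2 h in the knockout. At 2-fold, 0 promoters were lower in the knockout at 4 h or against the parent at DMSO, 2 h or 4 h. By the authors' fold the RPA1 decrease in the knockout at 4 h, and the calls against the parent at 2 h and 4 h, became 0, and the first was 0 by the recorded placement too. Among ratios past 1.5-fold by library code, RPA1 (-0.11) and PCNA (-0.50) in the parent at 4 h changed sign by the recorded placement. So did, knockout against parent, ATR at 2 h (0.05) and RPA1 at 4 h (0.38). Ratios inside 1.5-fold changed sign too. Examples are RPA1 in the knockout against the parent at 2 h (0.32 to -0.82) and ATR in the knockout at 2 h (-0.38 to 0.71). In the order of the genotypes, the authors' fold gave 0 regions with the parent above and 2 with the knockout above, and leaving out parent DMSO gave 5 and 1, both chosen after seeing the data.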
